A study of Mus musculus with 42 samples.

Results

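The second iPSC experiment of the series compared mouse induced pluripotent stem cells (iPSCs) exposed to 1 µM bisphenol S (BPS) with cells given the ethanol vehicle alone, and it is described here across all genes. Its members are the 6 RNA-seq libraries, of 42 in the series, that the sample titles assign to the persistence experiment and to iPSCs, 3 exposed to BPS and 3 to vehicle. In the study, cells of this experiment were also differentiated through epiblast-like cells into primordial germ cell-like cells (PGCLCs), which were not exposed again. Both groups were the same male line, made from the embryonic fibroblasts of 1 fetus that carried a doxycycline-inducible cassette of reprogramming factors, so all 6 libraries represent 1 line, kept without feeder cells in medium with LIF and kinase inhibitors. The BPS group received 1 µM BPS dissolved in ethanol for 24 h in sealed flasks of gassed medium, followed by 24 h without it, and the vehicle group received ethanol on the same schedule. Replicates are numbered 1 to 3 in each group, and the methods describe exposure in 3 sealed flasks and RNA from 3 preparations of cells, so the p-values here measure the spread between cultures of 1 line. Levels are given as CPM, read counts scaled to library size, with replicates in the order 1 to 3, and differences as log2 ratios of BPS to vehicle.

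BPS is used in place of bisphenol A in consumer plastics and is known as a mimic of estrogen. Many flat aromatic xenobiotics act through a different sensor, the aryl hydrocarbon receptor (AhR), which enters the nucleus with its partner ARNT, binds xenobiotic response elements with the core GCGTG and activates genes of chemical metabolism, with Cyp1a1 as the classical target. Immediate early genes such as Jun, Fos and Egr1 answer growth factors and stress within minutes, and their products form or act beside the AP-1 complex, while Ccn1 and Ccn2, secreted matricellular proteins, are targets of YAP with TEAD factors and of other serum-responsive inputs.

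The labelled cell type was checked against its markers. The 8 iPSC markers, among them Pou5f1, Nanog, Sox2, Esrrb and Zfp42, summed to 5075 to 5129 CPM in the BPS libraries and 5122 to 5235 CPM in the vehicle libraries. The 7 fibroblast and feeder markers summed to 2.45 to 3.06 CPM with BPS and 2.31 to 2.91 CPM with vehicle, with Lum, Dcn, Postn and Col3a1 at or near 0. The 6 mesoderm and endoderm markers summed to 36.1 to 38.8 CPM with BPS and 27.9 to 29.2 CPM with vehicle. Most of this sum was the gene T, at 28.4 to 31.0 CPM with BPS and 20.7 to 22.3 CPM with vehicle. For Mixl1, Sox17, Gata4 and Gata6 the groups overlapped, and Foxa2 was at most 0.147 CPM in any library. The 4 germ cell markers summed to 65.4 to 74.5 CPM with BPS and 76.4 to 78.8 CPM with vehicle. In bulk libraries, fewer cells of a type and less RNA per cell cannot be told apart. The part of these cells in the differences below was not tested. Depth was 28588881 to 31356358 recovered reads in the BPS libraries and 28499755 to 35256192 in the vehicle libraries, with 20344 to 20521 genes having at least 1 read in each of the 6.

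One library stood apart before any gene was compared. Over the 500 most variable genes the first principal component held 78.9% of the variance and placed BPS replicate 2 at 18.7, with BPS replicates 1 and 3 at -2.86 and -0.784 and the vehicle libraries at -4.77, -5.20 and -5.07. On component 2, with 14.4%, the groups overlapped. BPS replicates 1 to 3 lay at 3.92, 0.442 and -4.16, and vehicle replicates 1 to 3 at -4.63, -0.510 and 4.94. Component 3, with 5.13%, placed BPS replicates 1 and 3 at 3.10 and 2.95 and BPS replicate 2 at -0.810. The vehicle libraries lay at -1.64, -1.96 and -1.64 on component 3. The groups thus did not overlap on components 1 and 3. On component 3, BPS replicate 2 was nearer to the vehicle libraries than to its own group. Each comparison below is therefore given with and without BPS replicate 2.

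Across 15572 genes that reached 0.5 CPM in 3 or more of the 6 libraries, 2 genes rose with BPS and none fell at an adjusted p of 0.05 or less (limma with Benjamini-Hochberg adjustment), 0.0128% of the genes tested. An unadjusted p under 0.05 was reached by 1744 genes, 11.2% of those tested. The 3 BPS libraries lay above all 3 vehicle libraries in 1703 genes (10.9%) and below them in 2407 (15.5%). With BPS replicate 2 left out, leaving 2 BPS and 3 vehicle libraries, 1484 of 15392 genes passed (9.64%), 556 higher (3.61%) and 928 lower (6.03%), whereas leaving out any other of the 6 libraries left 0 called, with 811 to 2216 genes at an unadjusted p under 0.05. The 1484 differences were small, with a median absolute log2 difference of 0.19. Among them 314 reached a log2 difference of 0.32 in size, 240 higher and 74 lower, and 25 reached 2-fold, 22 higher and 3 lower.

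**Figure D1:**
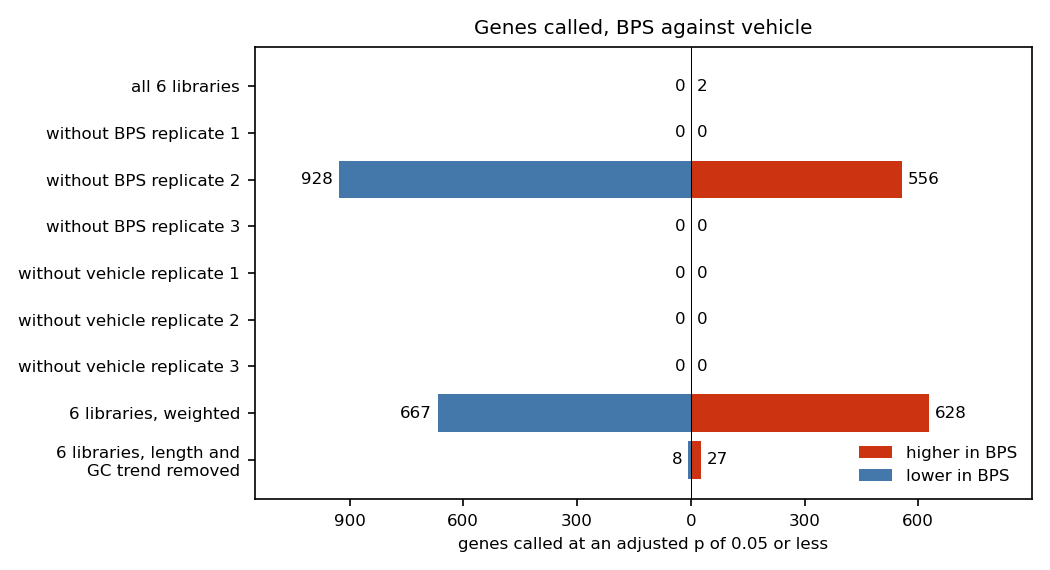
Number of genes called at an adjusted p of 0.05 or less, for all 6 libraries and with each library left out in turn. Bars to the right count genes higher with BPS and bars to the left genes lower with BPS. The lowest bars show all 6 libraries with a weight for each library, or with a trend on transcript length and GC content removed. The trend removal was chosen after the data were seen. With all 6 libraries 2 genes were called, and without BPS replicate 2 the counts were 556 higher and 928 lower.

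The genes that rose were Cyp1a1 and Ccn2. Cyp1a1 encodes a monooxygenase that oxidises polycyclic aromatic compounds and lies at chr9:57687928-57703824 (GRCm38), and Ccn2, at chr10:24595442-24598683, encodes connective tissue growth factor. Cyp1a1 had 14.03, 14.99 and 12.7 CPM in BPS replicates 1 to 3, against 6.51, 5.84 and 5.40 CPM in vehicle replicates 1 to 3. Every BPS library was above every vehicle library, the log2 difference was 1.23 with a standard error of 0.11 (2.34-fold), and the adjusted p was 0.0487. Ccn2 had 61.1, 58.9 and 60.3 CPM with BPS, against 35.3, 32.7 and 35.9 CPM with vehicle, a log2 difference of 0.80 with a standard error of 0.07 (1.74-fold) and an adjusted p of 0.0487. For both genes BPS replicate 2 sat with the other BPS libraries, and the log2 differences without it were 1.17 for Cyp1a1 (adjusted p 8.03e-07) and 0.81 for Ccn2 (adjusted p 7.09e-09). Leaving out any of the other 5 libraries ended both calls, with adjusted p up to 0.612. With all 6 libraries, both calls also ended under a filter at a CPM of 5, robust moderation or limma-voom on recovered reads. They ended too with the replicate number as a block.

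Jun, the AP-1 subunit, came next with an adjusted p of 0.0825. It had 40.5, 36.8 and 41.4 CPM with BPS and 21.5, 23.0 and 24.1 CPM with vehicle, a log2 difference of 0.79 (standard error 0.08), and it rose without BPS replicate 2 by 0.84 (adjusted p 3.07e-08).

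Promoter sequence is shown for genes among the 10 with the smallest p, so that the letters near their starts can be read beside the levels. Windows run from 250 bases before to 50 after the annotated start, on the gene's strand, from RefSeq on GRCm38.p6. Capitals mark 1 match in each. They show the XRE core GCGTG at -54 relative to the start of Cyp1a1 (chr9:57697363-57697662, plus strand), the TEAD-binding MCAT letters GGAATG, read on the opposite strand, at -103 of Ccn1 (chr3:145649936-145650235, minus strand) and the cyclic AMP response element TGACGTCA at -62 of Plk2 (chr13:110394794-110395093, plus strand).
Cyp1a1: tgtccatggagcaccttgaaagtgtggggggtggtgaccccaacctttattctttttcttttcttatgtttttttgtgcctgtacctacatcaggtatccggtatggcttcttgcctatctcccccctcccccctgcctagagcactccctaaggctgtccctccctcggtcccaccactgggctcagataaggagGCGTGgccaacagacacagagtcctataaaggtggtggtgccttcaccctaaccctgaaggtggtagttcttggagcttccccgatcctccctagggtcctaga
Ccn1: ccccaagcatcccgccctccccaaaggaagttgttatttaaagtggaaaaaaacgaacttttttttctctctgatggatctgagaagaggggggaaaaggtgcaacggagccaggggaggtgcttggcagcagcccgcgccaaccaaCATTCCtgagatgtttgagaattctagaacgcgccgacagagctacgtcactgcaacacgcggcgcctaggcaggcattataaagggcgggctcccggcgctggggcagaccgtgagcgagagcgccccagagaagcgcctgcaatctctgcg
Plk2: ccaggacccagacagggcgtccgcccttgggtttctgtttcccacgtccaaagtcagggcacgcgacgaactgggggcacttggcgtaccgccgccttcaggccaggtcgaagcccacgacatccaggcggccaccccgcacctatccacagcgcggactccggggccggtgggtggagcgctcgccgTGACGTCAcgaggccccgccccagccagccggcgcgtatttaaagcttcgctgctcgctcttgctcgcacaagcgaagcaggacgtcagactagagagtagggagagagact
In both strands of 32817 windows of this length, XRE cores were found in 32.4%, MCAT letters in 14.7%, the cyclic AMP response element in 1.79% and the AP-1 motif TGANTCA in 7.81%. XRE cores, not capitalised, also stood at -47 of Ccn1 and -191 of Plk2. In windows that are not printed, they stood at -180 of Acsf2, -145 of Dnmt3l and -229 of Fos. Psat1, which was lower with BPS, held them in both of its windows, at -148 and -42 and at -65 and -45. Among the unprinted windows, MCAT letters stood at -20 of Dnmt3l and the cyclic AMP response element at -143 of Dusp1. The windows of Jun, Cdx2 and Mthfd2 held none of the 4 motifs. For Ccn2 and Rtl1 there was no window to search. A match describes letters and not a bound site.

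The other genes among the 10 higher ones with the smallest p, all with a mean CPM of 5 or more and groups that did not overlap, did not pass with all 6 libraries, at adjusted p of 0.0825 to 0.199. Ccn1, a close relative of Ccn2, had 23.5, 24.2 and 21.3 CPM with BPS and 15.3, 14.03 and 14.4 CPM with vehicle. Plk2, a polo-like kinase of the stress response, had 103, 98.2 and 99.6 CPM with BPS and 75.7, 69.7 and 70.3 CPM with vehicle. Both groups stood clear of each other, with Plk2 at a log2 difference of 0.48 and Ccn1 at 0.65. Acsf2, an acyl-CoA synthetase family member, had 13.1, 12.5 and 12.6 CPM with BPS and 8.5004, 7.84 and 7.90 CPM with vehicle. Rtl1, a paternally expressed imprinted gene of retrotransposon origin, had 16.6, 19.4 and 17.2 CPM with BPS and 11.003, 11.3 and 11.4 CPM with vehicle. In Rtl1 the highest BPS value was that of replicate 2. Dnmt3l, the catalytically inactive partner of the de novo DNA methyltransferases, had 12.9, 15.7 and 10.1 CPM with BPS and 5.59, 5.93 and 6.41 CPM with vehicle. E330020D12Rik had 26.9, 37.5 and 24.5 CPM with BPS and 14.3, 13.7 and 14.6 CPM with vehicle. Adrb3, the beta-3 adrenergic receptor, differed by 0.50 on the log2 scale. Without BPS replicate 2, these 7 genes and Jun rose, at adjusted p of 3.07e-08 (Jun) to 0.000316 (Adrb3). All 10 higher genes were picked from the 6 libraries for a small p and groups that did not overlap. The fit without BPS replicate 2 reuses those libraries, so its direction was fixed in advance and its p-values are not separate evidence.

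Genes that were lower with BPS showed smaller differences. None passed with all 6 libraries, where, among those with the smallest p, Ncam1 had an adjusted p of 0.295 and the other 8 described here 0.318. Ncam1, a neural cell adhesion molecule, had 15.4, 12.2 and 13.8 CPM with BPS and 20.9, 21.02 and 19.6 CPM with vehicle, a log2 difference of -0.57. Psat1, the aminotransferase of serine synthesis, had 402, 412 and 402 CPM with BPS and 484, 488 and 480.2 CPM with vehicle. Mthfd2, the mitochondrial folate enzyme that uses serine-derived carbon, had 117, 120.4 and 115 CPM with BPS and 144, 143 and 144 CPM with vehicle. Psat1 and Mthfd2 differed by about the same amount, -0.26 and -0.29 on the log2 scale, and in both BPS replicate 2 was close to its group. Tfap2c, a transcription factor of germ cell specification, had 60.6, 60.3 and 62.4 CPM with BPS and 74.96, 73.05 and 74.1 CPM with vehicle. Adk, adenosine kinase, had 46.5, 49.1 and 47.5 CPM with BPS and 57.3, 59.2 and 61.2 CPM with vehicle. The rest were Lfng, a glycosyltransferase that modifies Notch, Srl, Zmat4 and Stxbp4, at -0.36 (Zmat4) to -0.49 (Lfng) on the log2 scale. Without BPS replicate 2, these 9 genes all fell, at adjusted p of 5.66e-06 (Psat1) to 0.0134 (Lfng). They too were picked from the 6 libraries that this fit reuses, so the direction was fixed in advance.

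**Figure D2:**
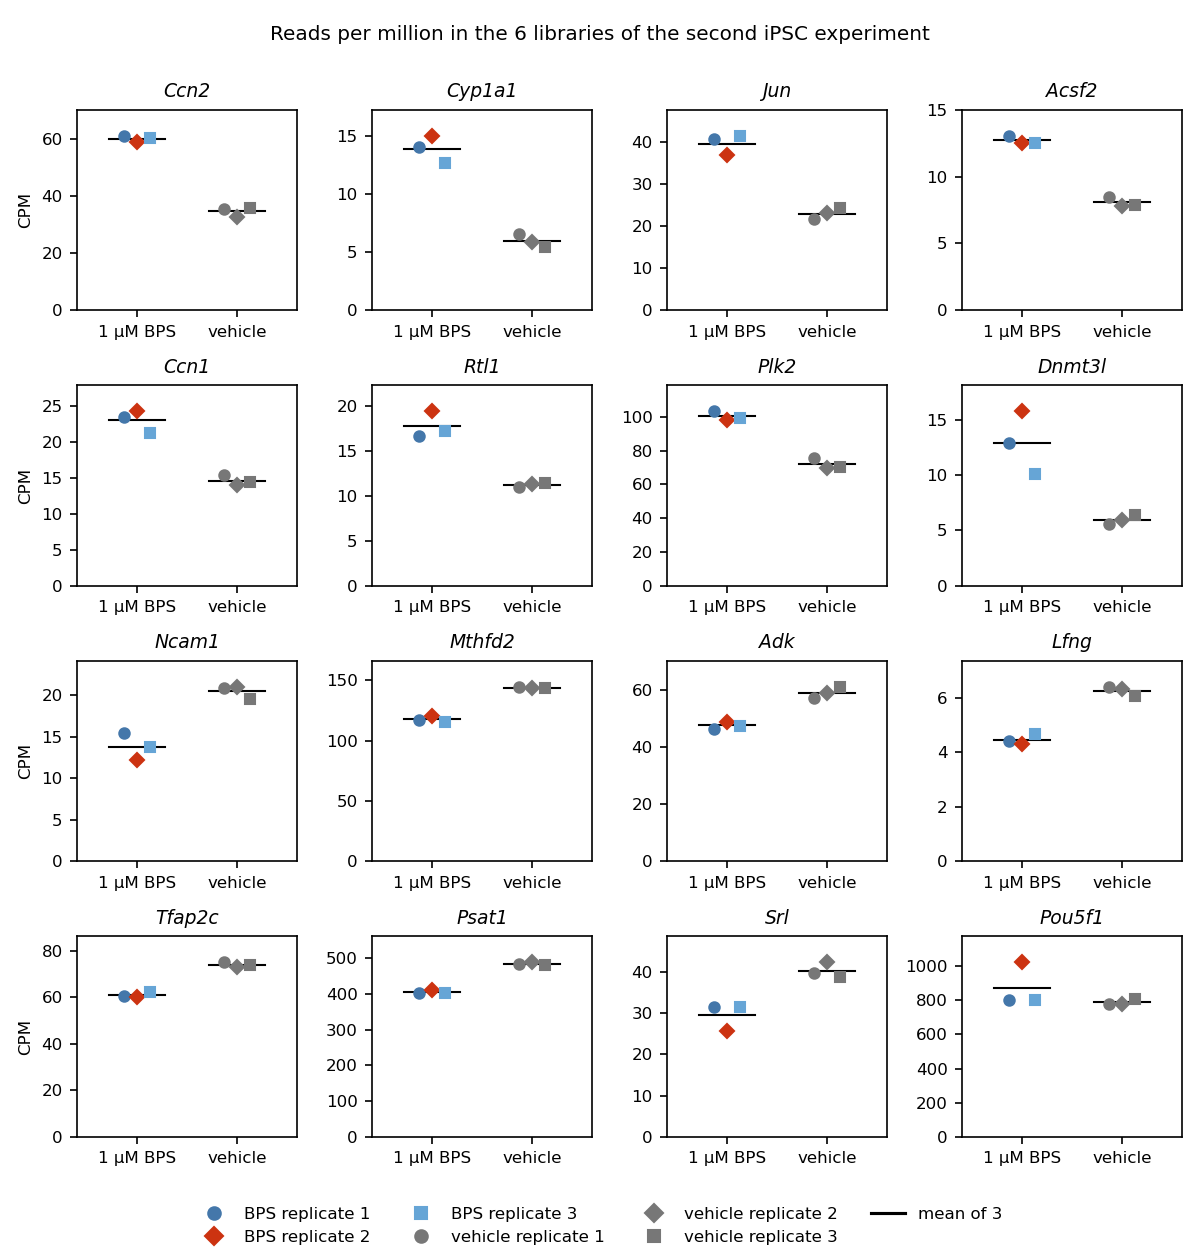
CPM of 16 genes in the 3 BPS libraries, left in each panel, and the 3 vehicle libraries, right; each point is 1 library, the diamond on the left is BPS replicate 2, and the line is the group mean. In Ccn2 the BPS libraries sit between 58.9 and 61.1 CPM and the vehicle libraries between 32.7 and 35.9 CPM, and in Pou5f1 only BPS replicate 2, at 1021 CPM, lies far from the rest.

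Gene lists were read through 2 counts, the members whose groups did not overlap in the 6 libraries, beside 10.9% of all genes higher and 15.5% lower, and the members called without BPS replicate 2, beside 3.61% higher and 6.03% lower. The median log2 difference of all genes tested was 0.0029, and -0.016 without BPS replicate 2. No member besides Cyp1a1 and Ccn2 was called with all 6 libraries.

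Of the 6 AhR targets tested, 4 had all BPS libraries above all vehicle libraries, none below, and 3 rose without BPS replicate 2, with a list median of 0.51 with all libraries. Beside Cyp1a1 these were Ahrr, the repressor that limits the receptor, and Nqo1, a quinone reductase. Ahrr had 1.56, 1.51 and 1.47 CPM with BPS and 0.626, 0.940 and 0.853 CPM with vehicle, and Nqo1 had 164, 184 and 159.6 CPM with BPS and 143, 143 and 139.9 CPM with vehicle. Cyp1b1, another monooxygenase target, was under 1 CPM in every library, at 0.675, 0.685 and 0.651 CPM with BPS and 0.515, 0.470 and 0.221 CPM with vehicle, and did not pass in either comparison (adjusted p 0.451 and 0.244).

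Of 16 immediate early and AP-1 genes tested, 11 were higher without overlap and none lower, and 8 rose without BPS replicate 2, with a list median of 0.20. Egr1, a zinc finger factor induced by growth factors, had 131, 99.6 and 157 CPM with BPS and 67.5, 53.3 and 80.4 CPM with vehicle. Fos, the partner of Jun, had 29.7, 23.4 and 25.7 CPM with BPS and 17.3, 12.7 and 20.98 CPM with vehicle. In both genes the replicates of each group spread widely and the groups still stood apart. Dusp1, a phosphatase that switches off MAP kinases, had 125, 127 and 129 CPM with BPS and 99.1, 95.9 and 105 CPM with vehicle. Of 14 YAP and TEAD targets, 4 were higher and 1 lower without overlap, and 3 rose and 1 fell without BPS replicate 2. The 3 were Ccn2, Ccn1 and Amotl2 (0.25), a scaffold protein that holds YAP in the cytoplasm, and the 1 was Tead4 (-0.15), itself a TEAD factor. Of 23 p53 targets, 8 were higher and none lower without overlap, and 6 rose without BPS replicate 2, among them Plk2, Pmaip1, which encodes the apoptosis regulator NOXA, at 0.42, and the nuclease gene Aen at 0.20.

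Developmental genes made up another set. Of 12 mesoderm and endoderm genes tested, 5 were higher and 1 lower without overlap, and 4 rose and none fell without BPS replicate 2. T, the brachyury factor of early mesoderm, had 28.4, 31.0 and 29.9 CPM with BPS and 20.7, 22.3 and 22.3 CPM with vehicle. Cdx2, a factor of trophoblast and posterior mesoderm, had 5.68, 5.62 and 5.05 CPM with BPS and 3.20, 3.26 and 3.57 CPM with vehicle, while the trophoblast markers Hand1 and Gata3 summed to at most 0.288 CPM in the BPS libraries and 0.184 CPM in the vehicle libraries. Both groups were clear of each other for T and for Cdx2, at log2 differences of 0.45 and 0.70. Of 18 WNT targets, 7 were higher and 2 lower without overlap, and 5 rose without BPS replicate 2, T and Cdx2 being on this list too, with Sp5 at 0.23, Cdx1 at 0.27 and Wls, the carrier that brings WNT proteins to the surface, at 0.32 on the log2 scale. Of 24 genes of naive pluripotency, 4 were higher and 2 lower without overlap, and 2 rose and 3 fell without BPS replicate 2, with Nr0b1 at 0.15 and Dppa5a at 0.21. Pou5f1, the factor OCT4, had 803, 1021 and 799 CPM with BPS and 780.3, 780.4 and 805 CPM with vehicle. Without BPS replicate 2 it differed by 0.02 (adjusted p 0.657), Sox2 by -0.06 (adjusted p 0.222) and Nanog by -0.10 (adjusted p 0.0248).

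Genes of imprinting and of DNA methylation moved in both directions. Of 43 imprinted genes tested, 13 were higher and 9 lower without overlap, and 10 rose and 6 fell without BPS replicate 2. Igf2, the fetal growth factor, had 1.46, 1.48 and 1.30 CPM with BPS and 0.589, 0.587 and 0.506 CPM with vehicle. Meg3, a maternally expressed non-coding RNA of the Dlk1-Dio3 cluster that also holds Rtl1, had 163, 207 and 162 CPM with BPS and 107, 109 and 124 CPM with vehicle. Peg10 had 43.0, 35.7 and 41.5 CPM with BPS and 29.1, 30.2 and 27.3 CPM with vehicle, without overlap. Rtl1 and Meg3 overlap neighbours in that cluster, the strand setting of the counting is not given, and reads of neighbouring or antisense transcripts may therefore be shared. Of 18 genes of DNA methylation, 2 were higher and 7 lower without overlap, and 2 rose and 3 fell without BPS replicate 2. Beside Dnmt3l the other riser was Zfp57, the zinc finger protein that guards imprints, at 119.8, 148 and 123 CPM with BPS and 105, 102 and 110.3 CPM with vehicle. Uhrf2, a reader of modified cytosine, had 32.5, 26.9 and 31.7 CPM with BPS and 37.8, 39.3 and 36.0 CPM with vehicle, and without BPS replicate 2 its log2 difference was -0.23, which passed.

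Lysosomal genes, which code for hydrolases and membrane proteins of that organelle, were mostly on the higher side. Of 39 genes tested, 22 were higher and 1 lower without overlap, and 15 rose and none fell without BPS replicate 2, with a median of 0.13. Hexa, a subunit of beta-hexosaminidase, had 139.8, 173 and 137 CPM with BPS and 114, 109 and 111 CPM with vehicle. Ctsl, a cysteine protease, had 101.0, 122 and 89.6 CPM with BPS and 74.001, 75.3 and 79.7 CPM with vehicle. In both, BPS replicate 2 was the highest library. Of 24 annexins, S100 proteins and keratins, 14 were higher and 1 lower without overlap, and 9 rose and 2 fell without BPS replicate 2. The list median was 0.28 with all 6 libraries and 0.13 without BPS replicate 2. That library lay above the mean of BPS replicates 1 and 3 in 19 of 20 of these genes, so the count of 14 rests partly on it. Anxa3, a calcium-dependent membrane-binding protein, had 3.45, 3.39 and 3.29 CPM with BPS and 1.47, 1.64 and 1.86 CPM with vehicle, and Anxa2 had 10.9, 12.97 and 7.91 CPM with BPS and 5.85, 5.37 and 5.78 CPM with vehicle.

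Genes that mark the two-cell stage or germ cells ranged widely in level. Of 7 genes of the two-cell stage tested, 5 were higher and 1 lower without overlap, and of the 5 that could be tested without BPS replicate 2, 3 rose. Zscan4c, expressed in the few cells of a culture that pass through a two-cell-like state, had 1.53, 1.87 and 1.33 CPM with BPS and 0.478, 0.558 and 0.537 CPM with vehicle. It belongs to a family of near-identical copies, so its reads may be shared. Of 20 genes tested from a list of germline genes silenced by promoter methylation, 5 were higher without overlap and 2 rose without BPS replicate 2, Dazl (10.9, 11.3 and 9.74 CPM with BPS and 8.57, 6.93 and 7.36 CPM with vehicle) and Fkbp6 (47.7, 61.2 and 51.2 CPM with BPS and 37.5, 37.9 and 37.4 CPM with vehicle). Both were expressed with vehicle, so not all of the list was silent in these cells. Of 10 primordial germ cell genes, 4 were lower and none higher without overlap, and 4 fell without BPS replicate 2, including Tfap2c, Prdm1 (25.2, 20.7 and 23.8 CPM with BPS and 29.4, 29.0 and 29.1 CPM with vehicle), a repressor of somatic genes, and Dppa3 (30.3, 40.7 and 32.4 CPM with BPS and 37.2, 36.9 and 39.6 CPM with vehicle). In Dppa3 only BPS replicate 2 was above the vehicle libraries.

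In 3 lists of metabolic and cell division genes, the members whose groups did not overlap were lower with BPS, apart from 2 of the first list. Of 28 genes of the integrated stress response and serine synthesis, 2 were higher and 12 lower without overlap, and 2 rose and 14 fell without BPS replicate 2, with medians of -0.085 and -0.17. Slc7a5, an importer of large neutral amino acids, had 366, 319.6 and 373 CPM with BPS and 440.0, 424 and 418 CPM with vehicle, and Ddit4, an inhibitor of mTORC1, had 71.996, 70.04 and 67.3 CPM with BPS and 78.6, 79.8 and 84.8 CPM with vehicle. Of 30 mitosis genes, 14 were lower and none higher without overlap, and 10 fell without BPS replicate 2, by small amounts such as -0.13 for Ccna2, the S and G2 phase cyclin, and -0.18 for Esco2, a cohesin acetyltransferase. Of 32 genes of cholesterol and fatty acid synthesis, 10 were lower and none higher without overlap, and 6 fell without BPS replicate 2, with Idi1 at -0.18 and Insig1 at -0.13.

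BPS replicate 2 departed from BPS replicates 1 and 3 in step with transcript length. Its departure, the log2 CPM in that library minus the mean of the other 2 BPS libraries, was at least 1 in size in 115 of 11062 genes with a mean CPM of at least 5, 13 above and 102 below. The same measure gave 22 and 11 genes for BPS replicates 1 and 3, 11, 0 and 11 for the vehicle libraries, and 0 to 58 for the 39 libraries outside this BPS group. In 86 genes it lay at least 1 below both of the others, and in 2 at least 1 above both. Pearson's r of log2 CPM over these genes was 0.9705 to 0.9767 between BPS replicate 2 and the other 5 libraries and 0.9953 to 0.9983 among those 5, all pairs coming from 1 normalised table. A mean chi-square per gene of reads was 57.8 and 55.7 between BPS replicate 2 and BPS replicates 1 and 3, 5.94 between replicates 1 and 3, and 3.14 to 6.61 between vehicle libraries, with 1 being the value that repeat draws of reads from 1 library would give.

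Short transcripts were high and long ones low in that library. Over 10904 genes with a transcript length (median 3400 bases over all), Spearman's rho of its departure with length was -0.742 and with GC content 0.261. Over the 8803 genes with a coding length, rho with coding length was -0.652. These values are a description over genes that share 1 library. The 39 libraries outside the BPS group gave rho with length of -0.591 to 0.551, the lowest being BPS replicate 2 of the first iPSC experiment. Genes with transcripts of up to 1000 bases had a median departure of 0.50, those of 1000 to 2000 bases 0.33, those of 2000 to 4000 bases 0.066, those of 4000 to 8000 bases -0.25 and those longer than 8000 bases -0.56. The difference of the shortest from the longest class was 1.06, against -0.336 to 0.479 in the 39 libraries. Set against the vehicle mean instead, BPS replicate 2 had medians of 0.50 in the shortest and -0.61 in the longest class, while BPS replicates 1 and 3 had -0.0071 and -0.015 in the shortest and -0.060 and -0.054 in the longest. Spearman's correlation of that difference with length was -0.708 for replicate 2, -0.0786 for replicate 1 and -0.0872 for replicate 3. BPS replicates 1 and 3 thus did not share the length pattern at that size. With GC content the correlation was 0.316 for replicate 2, 0.145 for replicate 1 and 0.338 for replicate 3. The association with GC content was therefore not particular to replicate 2.

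**Figure D3:**
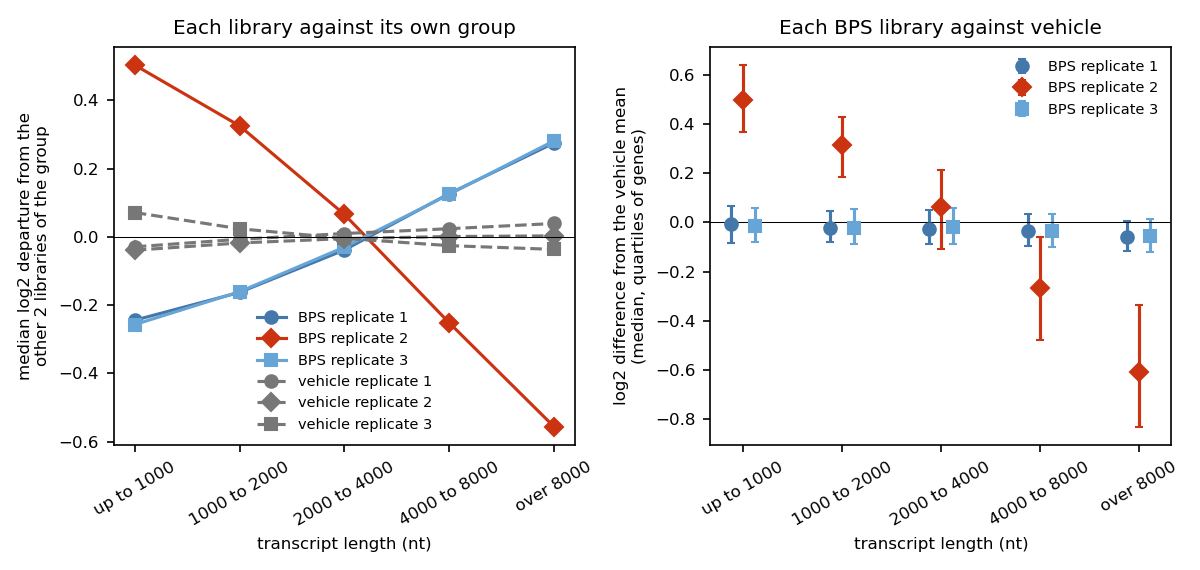
Left, median log2 departure of each of the 6 libraries from the other 2 of its group in 5 classes of transcript length (bases); right, median log2 difference of each BPS library from the vehicle mean in the same classes, with quartiles of genes as bars. BPS replicate 2 falls with length from class to class, reaching -0.56 (left) and -0.61 (right) above 8000 bases, and BPS replicates 1 and 3 lie near 0 on the right.

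Of the 10 genes lowest in BPS replicate 2, 9 are protein-coding. Zbed6, a zinc finger repressor of placental mammals encoded within an intron of Zc3h11a (chr1:133655879-133660885), had 45.3, 5.91 and 46.7 CPM in BPS replicates 1 to 3 and 50.7, 52.3 and 49.1 CPM in vehicle replicates 1 to 3. Adnp, a chromatin factor that partners with CHD4 and HP1, had 12.8, 2.05 and 11.3 CPM in BPS replicates 1 to 3 and 14.8, 12.9 and 13.97 CPM in vehicle replicates 1 to 3. Tnks, tankyrase, a poly-ADP-ribosylating enzyme that acts on AXIN and telomere proteins, had 93.2, 20.9 and 95.0 CPM in BPS replicates 1 to 3 and 113, 109.9 and 106 CPM in vehicle replicates 1 to 3. In each, BPS replicate 2 was the only library of the 6 away from the rest, at a departure of -2.95 (Zbed6), -2.53 (Adnp) and -2.17 (Tnks). Ago2, the slicing Argonaute of RNA interference, had 118, 29.3 and 107 CPM in BPS replicates 1 to 3 and 148, 132 and 126 CPM in vehicle replicates 1 to 3. The other 6 of the 10 lowest were LOC108168645, Abhd2, Prrg4, Abi2, Klhl28 and Gm14124, at departures of -2.29 to -1.80. The median transcript length was 6712 bases for the 102 genes at least 1 below and 315.5 bases for the 13 at least 1 above.

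The 10 highest genes were of another kind. Of these, n-R5s121, Gm25018, Rmrp, Rn28s1, Lars2, Rn7sk, Rn7s1, Gm15564 and Mir6236 were about as high in BPS replicate 3 and varied likewise between vehicle libraries, and 6 of these 9 are annotated as rRNA or small structural RNA, multi-copy genes whose counts are uncertain. Rn28s1 had 318, 1492 and 1390.1 CPM in BPS replicates 1 to 3 and 1096, 484 and 229 CPM in vehicle replicates 1 to 3. Rmrp, the RNA of RNase MRP, had 1.63, 11.2 and 13.9 CPM in BPS replicates 1 to 3 and 12.7, 4.55 and 0.790 CPM in vehicle replicates 1 to 3. The low library for these was BPS replicate 1, and replicate 2 stood above its group through it. Gm32899, a non-coding RNA, was high in BPS replicate 2 alone, with 27.2, 66.1 and 27.9 CPM in BPS replicates 1 to 3 and 29.0, 25.2 and 28.6 CPM in vehicle replicates 1 to 3. The share of reads on rRNA-type genes was 0.0883, 0.324 and 0.314% in BPS replicates 1 to 3 and 0.247, 0.127 and 0.0663% in vehicle replicates 1 to 3.

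Gene groups of short and of long messages stood out in BPS replicate 2. Ribosomal protein genes took 6.42% of its reads, against 4.45% and 4.44% in BPS replicates 1 and 3 and 4.19, 4.21 and 4.45% in the vehicle libraries. All 77 ribosomal protein genes had a positive departure, with a median of 0.63, and so had 41 of 42 nuclear genes of oxidative phosphorylation, with a median of 0.50, beside a median of 0.014 over all genes. Rps18, of the small subunit, had 58.1, 114 and 65.97 CPM in BPS replicates 1 to 3 and 46.6, 54.99 and 59.7 CPM in vehicle replicates 1 to 3, a gene chosen after its values were seen. Of the 77, 8 were higher without overlap in the 6 libraries, beside 10.9% of all genes. Without BPS replicate 2, 2 of the 77 rose, beside 3.61% of all genes. On the other side stood writers and erasers of histone methylation, with 5 of 35 above 0 and a median of -0.47. Collagens, laminins and basement membrane genes had 3 of 21 above 0 and a median of -0.44. PI3K and AKT pathway genes had 3 of 24 above 0 and a median of -0.37. Kmt2d, an H3K4 methyltransferase of enhancers and likewise chosen after its values were seen, had 195, 102 and 217 CPM in BPS replicates 1 to 3 and 207, 208 and 211 CPM in vehicle replicates 1 to 3. An alternative added after the data were seen took a smooth trend on length and GC content out of each library. The list medians then became 0.33 for ribosomal proteins, 0.17 for oxidative phosphorylation, -0.13 for histone methylation, -0.11 for the collagen list and -0.086 for the PI3K list.

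Taking that trend out of all 6 libraries left 35 genes called of 14755 (0.237%), 27 higher (0.183%) and 8 lower (0.0542%), of which 34 were also among the 1484 called without BPS replicate 2. Ccn2 (0.018), Cyp1a1 (0.018) and Jun (0.0267) were among them by adjusted p, as were Peg10 at a log2 difference of 0.61, Zscan4c at 1.49, Dnmt3l at 0.96, Mthfd2 at -0.37, Psat1 at -0.30 and Tfap2c at -0.32. With a weight estimated for each library, BPS replicate 2 received 0.0705 and the other 5 received 1.32 to 2.34, and 1295 genes were called, 628 higher and 667 lower, of which 1098 were among the 1484.

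BPS replicate 2 did not stand with its group for every gene called without it. Of the 556 higher genes, it lay above all vehicle libraries in 435 (78.2%), within their range in 43 and below all of them in 78, beside 44.0% of all genes above. Of the 928 lower genes, it lay below all vehicle libraries in 694 (74.8%), within in 50 and above in 184, beside 40.4% of all genes below. Transcript length divided these cases. Of 104 lower genes with transcripts above 8000 bases, BPS replicate 2 was below the vehicle libraries in 103 (99.0%), beside 84.4% of all genes of that length. Of 28 lower genes with up to 1000 bases it was above them in 21 (75%), beside 74.2% of all such genes, a share near the background. Of 95 higher genes with 1000 to 2000 bases it was above the vehicle libraries in 92 (96.8%), beside 79.4% of all such genes, and of 25 above 8000 bases in 11 (44%), beside 8.13%.

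**Figure D4:**
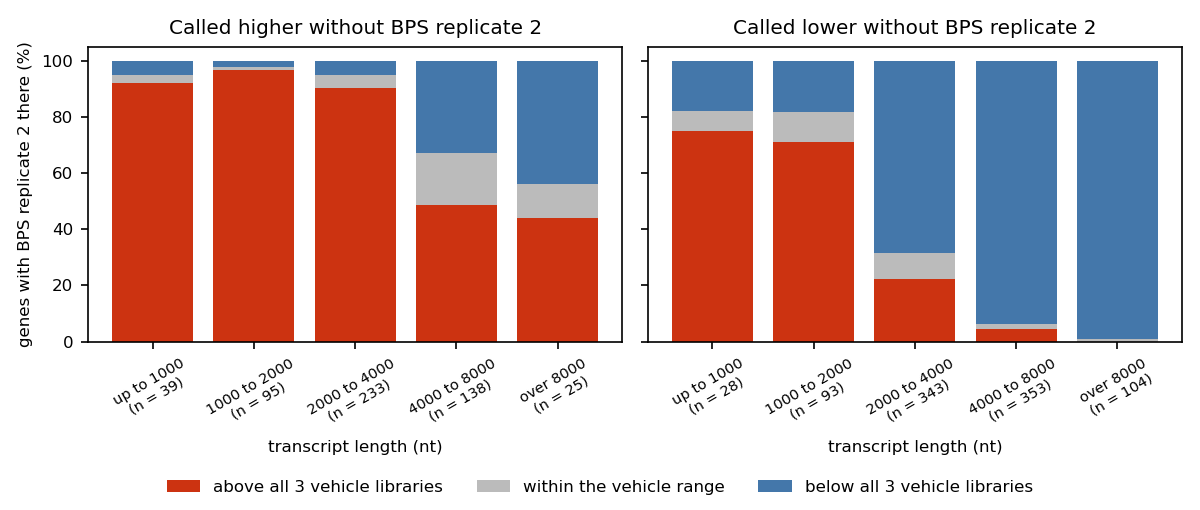
Share of genes (%) in which BPS replicate 2 lies above all 3 vehicle libraries, within their range or below all 3, by transcript length (bases), for genes called higher (left, 556 genes) and lower (right, 928 genes) without it; n is the number of genes in each class, and genes with no transcript length are left out. Among lower genes the share below the vehicle libraries grows with length, to 103 of 104 above 8000 bases.

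The first iPSC experiment, with the same line, dose and schedule and its own 3 vehicle libraries, held 3 BPS libraries at 1 µM that can be set beside these. All 10 named higher genes were also higher there and 9 of them passed, and all 9 named lower genes were lower there and 5 passed. Cyp1a1 differed by 0.93 there (adjusted p 0.000805), Ccn2 by 0.80 (adjusted p 0.0106), Jun by 1.00 (adjusted p 0.0314) and Rtl1 by 0.35 (adjusted p 0.0548). Of the 556 genes called higher without BPS replicate 2, 527 were higher there (94.8%) and 193 passed (34.7%), beside 46.5% higher and 3.15% passing among all genes tested in both. Of the 928 called lower, 899 of 927 tested were lower there (97.0%) and 137 passed (14.8%), beside 53.5% and 1.48%. Leaving out BPS replicate 2 of the first experiment as well, 510 of 552 tested were higher (92.4%) and 330 passed (59.8%), beside 8.17% of all genes, and 870 of 927 were lower (93.9%) and 548 passed (59.1%), beside 12.2% of all genes.

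A test of the difference between the experiments called no gene of 16233, with 693 at an unadjusted p under 0.05. Left without BPS replicate 2 of the second experiment, it called 1 gene, Krt18, a keratin of simple epithelia, named after its values were seen. The 5 genes with the smallest p in the test with all libraries were Trp53inp2, Mir6516, Abcg1, Umad1 and Mup6, all at an adjusted p of 0.877. A p that misses the threshold does not show that the responses were alike.

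In the PGCLCs derived from cells of this experiment, again with 3 BPS and 3 vehicle libraries, no gene of 16268 passed in the BPS comparison (2578 at an unadjusted p under 0.05). Of the 556 higher genes, 286 of 536 tested were higher in the PGCLCs (53.4%), beside 47.9% of all genes, and of the 928 lower genes, 617 of 926 were lower (66.6%), beside 52.1% of all genes. Cyp1a1 differed by -0.10 (adjusted p 0.899) and Jun by 0.26 (adjusted p 0.389). Ccn2 had 37.1, 35.8 and 37.2 CPM in PGCLCs from BPS-exposed iPSCs and 45.5, 36.3 and 40.8 CPM in those from vehicle iPSCs, which overlap. The test of the difference between the second iPSC experiment and the derived PGCLCs called 1 gene of 17247 (0.0058%), Ccn2, whose log2 difference was larger in the iPSCs by 0.95 (standard error 0.11, adjusted p 0.0229), with 1936 genes at an unadjusted p under 0.05. That call was lost without vehicle replicate 1 or 2 or BPS replicate 1 or 3 of the iPSCs, without vehicle replicate 3 of the PGCLCs and without any of their 3 BPS libraries, with adjusted p up to 0.155. The next 4 genes by p, Sstr5, Lcp1, Phlda1 and Stxbp4, did not pass, at adjusted p of 0.187 to 0.310. Lcp1, an actin-bundling protein, had 18.7, 17.5 and 18.95 CPM with BPS and 16.1, 14.9 and 13.7 CPM with vehicle in the iPSCs, and 5.86, 5.34 and 5.55 CPM with BPS and 8.43, 7.54 and 8.23 CPM with vehicle in the PGCLCs.

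**Figure D5:**
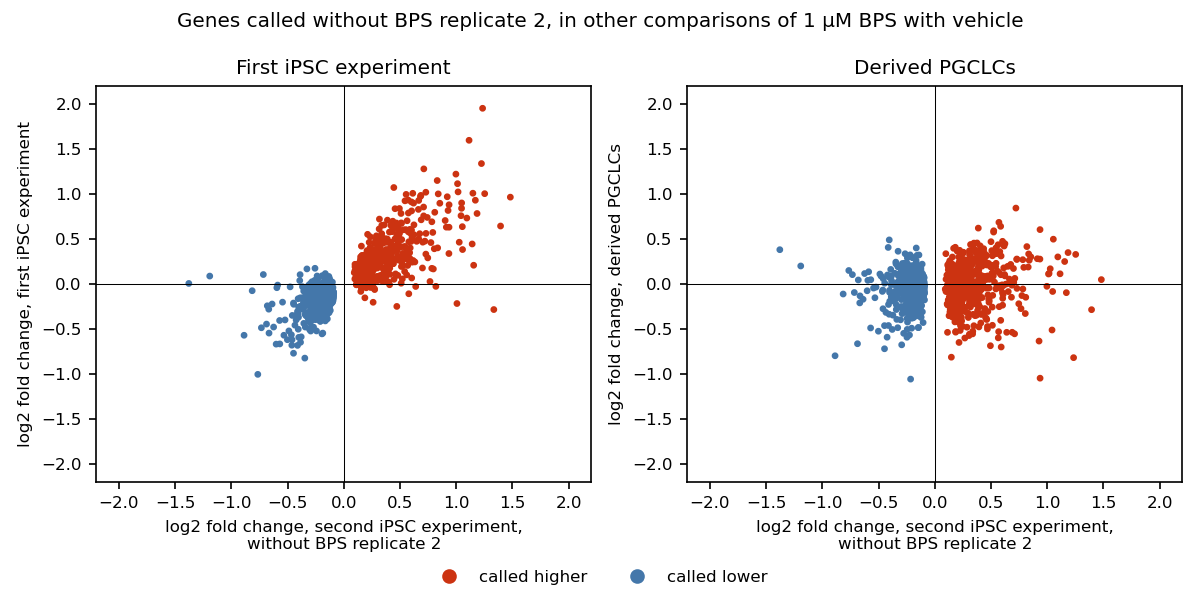
Log2 difference of BPS from vehicle for the genes called without BPS replicate 2, in the second iPSC experiment without that library (horizontal axis) and in the first iPSC experiment or the derived PGCLCs (vertical axis); each point is a gene, red if called higher and blue if called lower. In the first experiment 527 of 556 red points lie above 0 and 899 of 927 blue points below it, and in the PGCLCs 286 of 536 and 617 of 926.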

How the data were processed

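RNA-seq of 42 libraries was used through 1 table of 22186 genes, whose values the authors deposited as log2 CPM. To make them, the authors prepared directional libraries from poly(A) RNA (NEBNext Ultra II), inspected the reads with FastQC, mapped and counted these against mm10 in Rsubread and scaled the counts by TMM to CPM in edgeR. Versions of Rsubread and edgeR, gene models, strandedness of counting and filters are not given in the sources that were used here. The deposited values imply that a CPM of 0.0313 was added before the log, so differences of genes with few reads are understated. Each library's values, once divided by what 1 read is worth, were whole numbers to within 0.05 in at least 99.9% of cases, and depth was recovered from them. At this depth, genes of a few CPM have counting error of their own, and intervals or spreads over so few libraries are wide.

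Groups came from the sample titles. The 3 BPS and 3 vehicle libraries were compared on the deposited log2 values with limma 3.58.1 in R 4.3.3 (moderated variances with a mean trend, two-sided, Benjamini-Hochberg adjustment over all genes tested, threshold 0.05). The plan foresaw log values; the count test for recovered reads was limma-voom, as an alternative. The filter was a CPM of 0.5 in 3 libraries. Differences in response between experiments were interaction terms. Other alternatives were an added CPM of 0.25, 1 or 4, other filters and scalings, the replicate number as a block, library weights, robust moderation, wider fits and leaving out each library. Removal of a smooth trend on transcript length and GC content (98.6% of genes with a mean CPM of 5 or more had both, from GENCODE transcripts of GRCm38), and its combinations, were chosen after seeing the data. The test was checked on simulated data. Tables and figures used Python 3.11.15, pandas 2.3.3, numpy 2.4.6 and matplotlib 3.10.9.

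The experiment, its members and the gene lists were chosen with earlier results of these data known. Named genes were the called ones, the 10 with the smallest p in each direction among genes with mean CPM of 5 or more and groups that did not overlap, up to 4 members of each list with the smallest adjusted p, the 10 highest and 10 lowest genes of BPS replicate 2, the 5 with the smallest p in each interaction, and Cyp1a1, Cyp1b1, Pou5f1, Nanog, Sox2, Dppa3, Fgf5, T and Col1a1. Fgf5 did not pass the filter, and 1 gene that the rule named is not reported here. Coordinates are those of GRCm38. The DNA methylation data were not used here.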

Additional observations from a re-analysis of the deposited data

Results flagged for a closer look

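The BPS response of Ccn2 differed between the second iPSC experiment and the PGCLCs derived from it, by 0.95 on the log2 scale (limma interaction, adjusted p 0.0229, standard error 0.11). The difference of BPS from vehicle was 0.80 in the iPSCs, higher in 3 of 3 BPS libraries than in any vehicle library, and -0.15 in the PGCLCs, where the groups overlapped. The adjusted p ran from 0.00414 to 0.155 over the alternatives.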

How the results depend on the processing

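With all 6 libraries, 2 genes were called. The count was 0 with the filter raised to a CPM of 5, with robust moderation and with limma-voom on recovered reads (1174, 1696 and 1750 genes at an unadjusted p under 0.05), 1295 with library weights, 18 in a fit with the derived PGCLCs, 51 in a fit with the first iPSC experiment and 2046 in a fit of all 42 libraries. An added CPM of 0.25, 1 or 4, no filter and median ratio scaling gave 2, and upper quartile scaling gave 3. Leaving out 1 library gave 0 to 1484, and 1484 was reached only without BPS replicate 2. Alternatives added after seeing the data gave 35 with the length and GC trend removed and, without BPS replicate 2, 1799 with the trend removed, 1469 with limma-voom and 314 at a log2 difference of 0.32 or more. Adjusted p ran from 1.17e-09 to 0.612 for Ccn2 and from 2.12e-07 to 0.612 for Cyp1a1. Apart from the settings that use fewer libraries or genes, the cause of these differences was not tested.

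Whether replicate numbers pair the libraries is not stated in the labels. Deviations of same-numbered BPS and vehicle libraries correlated at -0.12, -0.039 and -0.17 across genes. The deviations of the BPS libraries carried the length pattern of BPS replicate 2, so these values cannot settle it. With the replicate block, the count of calls was 0 (1353 at an unadjusted p under 0.05), the interaction with the first iPSC experiment stayed at 0 (593 at an unadjusted p under 0.05), and the interaction with derived PGCLCs was 0 in place of 1. Leaving out 1 library, these interactions gave 0 to 1 and 0 to 2 calls, the second call being Unc5c without vehicle replicate 3. The count of genes in which BPS replicate 2 departed by at least 1 was 115, 60 at a mean CPM of at least 20 and 58 with the trend removed.

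Of 1671 values of 70 named genes over 24 alternatives, 341 passed where the main comparison did not, and 20 missed where it passed. Another 6 changed sign, none of them past the threshold. Pou5f1 was at -0.023 with the trend removed and -0.030 without BPS replicate 2 as well. Col1a1, under 1.3 CPM, was at 0.039 with library weights and 0.011 with the trend removed, and at -0.19 to 0.15 when 1 library was left out.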

Other observations

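Lists not described above also held genes that moved without BPS replicate 2. Of 18 NODAL and TGF-beta pathway genes, 1 was higher and 7 lower without overlap in the 6 libraries, with 2 higher and 3 lower called without BPS replicate 2. Of 26 genes of the unfolded protein response and heat shock, 8 were called lower and 2 higher without it, and of 24 genes of translation and mTORC1-linked metabolism 6 were called lower and none higher. Of 15 HOX genes tested, 6 were higher and none lower without overlap, and 1 was called higher without BPS replicate 2.

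Among the 25 genes with the largest differences without BPS replicate 2, chosen after their values were seen, were Scara5, a ferritin receptor, at 1.48, Sdc3, a heparan sulfate proteoglycan, at 1.10, and Tgfbr2, the type II receptor of TGF-beta, at 1.02 on the log2 scale.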
